A study of Mus musculus with 16 samples.

Results

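The cytosolic ribosome is the particle that translates nuclear-encoded mRNAs, and its protein part is examined here in fibroblasts of the dermis, which make the matrix of the skin. Members were all genes on the array with a symbol of the form Rpl or Rps and a number, optionally followed by a, l or x, together with Rplp0, Rplp1, Rplp2 and Rpsa. Only probe sets listed with 1 gene symbol were used, and of several, the one brightest on average across the arrays stood for its gene. This gave 67 genes of the 17097 genes with such a probe set. They were 40 proteins of the large (60S) subunit, the 3 proteins of its stalk and 24 proteins of the small (40S) subunit. All 67 passed the filter on low values, as did 14819 genes in all, so no member was lost to it.

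The cells came from female C57Bl/6 mice, an inbred laboratory strain, 4 of them young (2 months) and 4 old (18 months). Each mouse gave 1 sample of 5000 fibroblasts that was measured without culture (in vivo in the labels) and 1 of 5000 fibroblasts that was measured after culture. The 4 groups of 4 arrays are therefore young and old cells in vivo and young and old cells after culture, and no group carried a transgene or drug in the labels. RNA was amplified as cDNA over 23 cycles before hybridisation to a mouse Affymetrix array, and the sources used here do not give time in culture, medium or passage. In vivo and cultured arrays of 1 mouse could not be paired, since the labels do not tie arrays to mice or to collection days. All values are log2 intensities set against the rest of the same array, and fewer cells of a type and less RNA per cell cannot be told apart in such bulk samples.

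Ribosomal proteins are needed in equal numbers, 1 copy of nearly each protein per particle, and the stalk proteins recruit the GTPases that drive elongation. Their mRNAs belong to the TOP class, named for a run of pyrimidines that begins with a C at the very 5′ end of the mRNA. Through this run, the mTOR pathway and the RNA-binding protein LARP1 control the translation of these mRNAs. A few ribosomal proteins have paralogues with restricted expression, such as Rpl3l in striated muscle and Rpl39l in the testis, and Rps27l is known as a target of the stress regulator p53.

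The start sites of the members were read from the RefSeq table of GRCm38.p6 to show this run, because it is the feature that defines the class and was not used to choose the genes. The lines give 15 bases before and 15 bases from the annotated start on the gene's own strand, 5′ to 3′, with the longest pyrimidine run in capitals. A run was defined as a C followed by at least 4 further bases that are each C or T, searched on the gene's strand only. The first 6 genes have a run that spans the annotated start, which is base 16 of each line, the next 4 have none in the window although they were among the members that differed most between conditions, and the last 3 are the paralogues.
Rpl14, chr9:120571502-120571531, plus strand: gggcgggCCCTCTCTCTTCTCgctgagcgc
Rpl28, chr7:4792950-4792979, plus strand: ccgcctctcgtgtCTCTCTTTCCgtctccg
Rplp2, chr7:141447636-141447665, plus strand: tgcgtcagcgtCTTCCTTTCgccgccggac
Rps6, chr4:86857353-86857382, minus strand: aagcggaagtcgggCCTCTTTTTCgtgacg
Rps10, chr17:27635230-27635259, minus strand: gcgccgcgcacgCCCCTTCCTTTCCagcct
Rps18, chr17:33955651-33955680, minus strand: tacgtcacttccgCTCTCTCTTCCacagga
Rps19, chr7:24884577-24884606, plus strand: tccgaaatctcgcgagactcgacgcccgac
Rps13, chr7:116334176-116334205, minus strand: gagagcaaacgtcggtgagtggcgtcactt
Rpl27, chr11:101442230-101442259, plus strand: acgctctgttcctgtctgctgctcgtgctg
Rpsa, chr9:120127751-120127780, plus strand: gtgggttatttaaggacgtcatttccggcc
Rpl39l, chr16:10170213-10170242, plus strand: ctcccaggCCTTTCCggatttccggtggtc
Rps27l, chr9:66946071-66946100, plus strand: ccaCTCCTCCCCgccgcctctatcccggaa
Rpl3l, chr17:24727811-24727840, plus strand: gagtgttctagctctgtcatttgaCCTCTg

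A start sequence was matched by symbol for 53 of the 67 members. Of these, 11 (20.8%) had a C at the annotated start followed by at least 4 further pyrimidines, whether or not the run reached further upstream, against 813 of 27025 genes in the table (3.01%). Within 15 bases on either side, 36 of the 53 (67.9%) had a run, against 40.3% of all genes. None of 65 genes for mitochondrial ribosomal proteins had such a C at the start, and 46.2% had one nearby. An annotated start can lie some bases away from the one used in these cells, so a missing run says only that these letters are not in this window. Members with a run at the start had a median log2 change in culture of 0.30 and a median age difference in vivo of 0.16 (11 genes). The medians of the other 42 were 0.22 and 0.13, and these are descriptions with no test.

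By the array median of the deposited values, the members lay at 3 separate levels. The median over the 67 members was 10.93, 10.91, 10.81 and 10.88 on the young in vivo arrays and 11.26, 11.05, 11.09 and 10.97 on the old in vivo arrays. It was 11.34, 11.39, 11.39 and 11.36 on the young cultured arrays and 11.36, 11.41, 11.34 and 11.36 on the old cultured arrays. Every old in vivo array thus lay above every young in vivo array and below every cultured array, while young and old cultured arrays overlapped fully. The group means were 10.88 ± 0.05 (SD, n = 4), 11.09 ± 0.12, 11.37 ± 0.02 and 11.37 ± 0.03, in the same order. Both subunits showed the order of the group means: the 60S medians averaged 10.86, 11.06, 11.34 and 11.33, and the 40S medians 11.11, 11.25, 11.43 and 11.45. The members' median minus the array's median over tested genes was 4.93 to 5.04 on young and 5.03 to 5.35 on old in vivo arrays. The ages thus overlapped on this measure, and cultured arrays lay at 5.36 to 5.46. Probe sets differ in affinity, so the level of 1 gene is not compared with that of another.

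**Figure D1:**
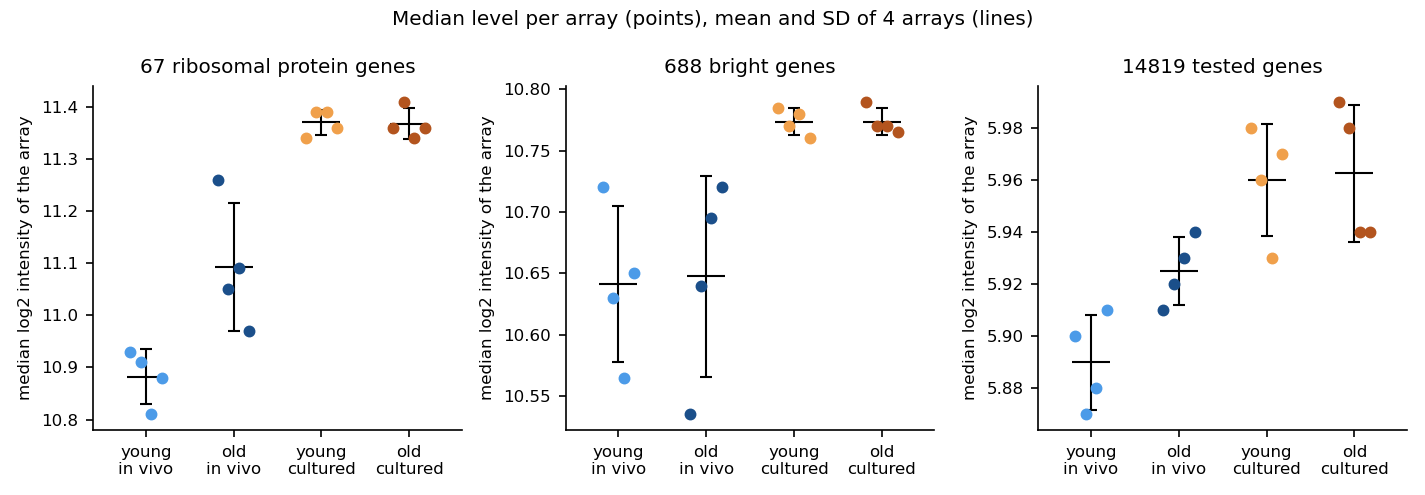
Median log2 intensity of each of 16 arrays over the 67 ribosomal protein genes (left), over 688 genes with a mean of at least 10 (middle) and over all 14819 tested genes (right), with the mean and SD of 4 arrays; the y axes differ. The means of the ribosomal protein medians are 10.88 (young in vivo), 11.09 (old in vivo) and 11.37 (both cultured groups), while the bright genes overlap between the ages. The medians of the bright genes run from 10.535 to 10.72 in vivo and from 10.76 to 10.79 after culture, without overlap.

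Other measures moved with these groups, and their part in the results below was not tested. For beta-actin, the 3′ minus the 5′ control probe set, which reflects how intact and how fully copied the RNA was, gave -0.49 to -0.32 on young in vivo arrays, -0.56 to -0.31 on old ones and 0.03 to 0.18 on cultured arrays. For Gapdh it was -0.12 to -0.04 on young and -0.17 to -0.13 on old in vivo arrays, with no overlap. On cultured arrays it was -0.15 to -0.01 (young) and -0.17 to -0.12 (old), which overlapped the in vivo values. The mean level of 9 fibroblast markers was 10.56 and 10.51 in the young and old in vivo groups and 9.22 and 9.18 after culture, where 8 of the 9 were lower. Macrophage markers (7 tested) averaged 5.43, 5.34, 4.57 and 4.57 in the same order. The 9 keratinocyte markers averaged 5.17 to 5.46 on young in vivo, 5.17 to 6.69 on old in vivo and 4.73 to 5.05 on cultured arrays. The value of 6.69 belongs to old in vivo replicate 1, which also had the highest member median of its group and the lowest mean correlation with its group (0.984), so the counts of members that involve old in vivo cells are given without it too.

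The first comparison asked how cultured fibroblasts differed from fresh ones. Most ribosomal protein genes were higher after culture, by small amounts: 44 of 67 (65.7%) passed the threshold of an adjusted p of 0.05 as higher, 4 as lower and 19 not at all. Over all tested genes, 34.8% were higher and 44.7% lower. The median log2 change of the members was 0.22 (cultured minus in vivo, both ages averaged), against -0.11 for all genes and 0.16 for the 688 genes with a mean of at least 10, a class that holds 55 of the members. For 24 of the 67, all 8 cultured arrays lay above all 8 in vivo arrays, and 23.9% of all tested genes did so. Among genes with a mean of at least 10, 37.9% of all 688 and 16 of the 55 members (29.1%) did so. The subunits had like shares, with 26 of 40 60S genes, 3 of 3 stalk genes and 15 of 24 40S genes higher. Without old in vivo replicate 1, 47 were higher and 3 lower (median 0.23).

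These counts depend on how the arrays are scaled. With each array set to a common 75th percentile, 22 members were higher and 16 lower, against 27.1% and 58.9% of all genes, and the members' median was 0.02 where that of all genes was -0.31. With cyclic loess, which removes intensity-dependent differences between arrays, 12 were higher and 22 lower, against 32.1% and 36.7% of all genes, with a median of -0.06. Under all 3 scalings, 12 of 67 members were higher (against 26.5% of the 14758 genes tested in all 3), namely Rpl14, Rpl39l, Rps27l, Rps19, Rpl36a, Rpl27, Rps13, Rps18, Rplp2, Rplp1, Rpl29 and Rpsa, and 2 were lower (Rpl4 and Rps7, against 32.1% of all genes). The other 53 did not pass in 1 direction under all 3.

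**Figure D2:**
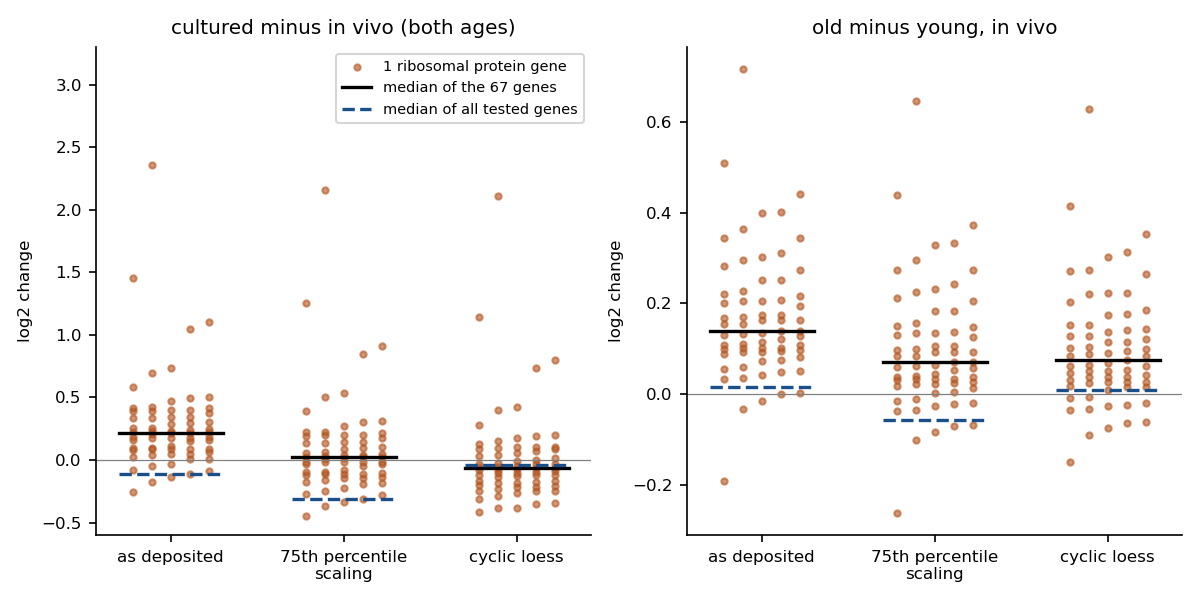
Log2 change of each of 67 ribosomal protein genes (points) in culture (left) and with age in vivo (right) under 3 scalings of the arrays, with the median of the genes (solid line) and of all tested genes (dashed line). In culture the members' median falls from 0.22 to 0.02 and -0.06, whereas the age median is 0.14, 0.07 and 0.07.

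Among the large-subunit proteins, Rpl14 differed most. Its values were 6.52, 5.38, 5.28 and 6.04 in young in vivo, 6.38, 6.42, 6.72 and 6.57 in old in vivo, 8.45, 8.42, 8.59 and 8.46 in young cultured and 8.42, 8.63, 8.61 and 8.56 in old cultured cells. All cultured arrays lay above all in vivo arrays, and the young in vivo arrays were spread more widely than those of any other group. Rpl14 was 5.11-fold higher in culture (log2 change 2.35 ± 0.14, standard error of the fit, adjusted p = 9.47e-11), and 2.16 and 2.11 under the other scalings. Rpl36a, a protein of the tRNA exit site, was at 8.20, 7.96, 7.87 and 7.91 in young in vivo and 8.66, 8.11, 8.41 and 8.36 in old in vivo cells. After culture it was at 8.90, 8.94, 8.96 and 8.94 in young and 8.88, 9.01, 8.86 and 8.84 in old cells, again with no overlap between the conditions. The change was 0.73 ± 0.07 (1.66-fold, adjusted p = 9.72e-08). Rpl27 ranged from 10.46 to 10.81 in vivo and from 11.22 to 11.41 in culture, a change of 0.70 ± 0.06 (adjusted p = 7.28e-09). Rpl4, whose extension lines the tunnel through which the new chain leaves, went the other way by a small step, from 11.97 ± 0.06 (SD, n = 4) and 12.04 ± 0.04 in young and old in vivo cells to 11.91 ± 0.03 and 11.87 ± 0.06 in culture, and it fell by 0.12 ± 0.05 on the log2 scale (adjusted p = 0.033). Its ranges overlapped (11.88 to 12.08 in vivo and 11.79 to 11.94 in culture), and the call was lost when any 1 of 7 arrays was left out, such as old cultured replicate 1 (adjusted p = 0.0727).

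Of the small-subunit proteins, Rps19, whose human counterpart is mutated in Diamond-Blackfan anaemia, changed most after the paralogue Rps27l. Rps19 was at 8.20, 7.93, 7.67 and 7.90 in young in vivo, 8.79, 8.12, 8.32 and 8.51 in old in vivo, 9.29, 9.14, 9.20 and 9.25 in young cultured and 9.23, 9.28, 9.28 and 9.14 in old cultured cells. Culture separated the arrays fully, and the log2 change was 1.05 ± 0.09 (2.07-fold, adjusted p = 1.28e-08). Rps13 had 9.03 to 9.72 in vivo and 9.83 to 10.02 in culture, and rose by 0.59 ± 0.06 on the log2 scale (adjusted p = 3.56e-07). Rps18, a protein of the head of the small subunit, was at 8.95, 8.81, 8.86 and 8.81 in young in vivo and 9.36, 9.15, 9.13 and 9.25 in old in vivo cells, and between 9.49 and 9.58 on all cultured arrays. It rose by 0.51 ± 0.05 (adjusted p = 8.76e-08), and the 3 levels of young in vivo, old in vivo and cultured cells did not overlap.

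Rpsa, which is a ribosomal protein and is also known as the laminin receptor, was at 11.87, 11.86, 11.71 and 11.85 in young in vivo and 11.92, 11.85, 11.86 and 11.86 in old in vivo cells. It was at 12.14, 12.31, 12.27 and 12.24 in young cultured and 12.28, 12.28, 12.32 and 12.28 in old cultured cells. The 8 cultured values all exceeded the 8 in vivo values, and the change was 0.42 ± 0.05 averaged over the ages (adjusted p = 5.23e-07) and 0.42 ± 0.07 in each age. Rps7, which binds MDM2, was at 11.58, 11.57, 11.61 and 11.68 in young in vivo and 11.78, 11.71, 11.71 and 11.78 in old in vivo cells, and at 11.50 to 11.59 in culture. It fell by 0.14 ± 0.04 on the log2 scale (adjusted p = 0.0115), and its cultured arrays lay below the old but not below all young in vivo arrays. Rps6, the substrate of S6 kinase, was at 12.04, 12.01, 11.98 and 12.08 in young in vivo and 12.16, 12.10, 12.27 and 12.26 in old in vivo cells. In culture it was between 12.13 and 12.27, so that old in vivo and cultured cells overlapped and young in vivo cells lay below both. Its averaged change of 0.09 ± 0.05 did not pass the threshold (adjusted p = 0.104), and it was -0.11 with the 75th percentile and -0.17 with cyclic loess. A further probe set of Rps6, with a mean of 7.87, was 0.97 higher in culture without overlap. Another, dim at a mean of 4.18, differed by -0.19. Rps15a fell by 0.25 ± 0.08 (adjusted p = 0.0102; -0.07 with cyclic loess), but its only probe set was dim, at 4.43 to 5.11 on all arrays, near the floor of 3.87 that the filter used.

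The stalk proteins all passed. Rplp1 had 10.83, 10.83, 10.55 and 10.75 in young in vivo, 10.99, 10.93, 11.18 and 10.77 in old in vivo and 11.25 to 11.39 in cultured cells. Conditions did not overlap, and the change was 0.47 ± 0.06 (adjusted p = 4.99e-06). Rplp2 had 10.40, 10.44, 10.11 and 10.22 in young in vivo, 10.68, 10.57, 10.79 and 10.26 in old in vivo, 10.64, 10.96, 10.94 and 10.95 in young cultured and 11.01, 11.07, 10.96 and 10.92 in old cultured cells. Young cultured replicate 1 lay within the old in vivo range, and the change was 0.50 ± 0.08 (adjusted p = 3.01e-05). Rplp0, often used as a reference gene in qPCR, ran from 11.56 to 11.74 in vivo and from 11.80 to 12.02 in culture, a change of 0.22 ± 0.05 (adjusted p = 7.77e-04) as deposited, of 0.02 with the 75th percentile and of -0.059 after cyclic loess.

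The paralogues differed in their values. Rpl39l was at 8.75, 8.74, 8.65 and 9.04 in young in vivo and 8.74, 8.85, 8.86 and 8.95 in old in vivo cells. After culture it was at 9.59, 10.35, 10.37 and 10.40 in young and 10.06, 10.45, 10.49 and 10.49 in old cells, so that both replicates numbered 1 were the lowest of their group and all were above every in vivo array. The change was 1.45 ± 0.11 (2.74-fold, adjusted p = 3.14e-09), whereas its ubiquitous partner Rpl39 changed by 0.23 ± 0.06 (adjusted p = 0.00268), with overlapping ranges of 10.69 to 11.07 in vivo and 10.93 to 11.19 in culture, and was at -0.064 with cyclic loess. Rps27l was at 9.60, 9.39, 9.02 and 9.23 in young in vivo, 9.25, 9.45, 9.56 and 9.39 in old in vivo, 10.52, 10.37, 10.57 and 10.47 in young cultured and 10.37, 10.52, 10.43 and 10.48 in old cultured cells. Culture separated the arrays fully and age did not, and the change was 1.11 ± 0.08 (2.15-fold, adjusted p = 7.58e-10). Rpl3l, the muscle paralogue, lay at 3.89 to 4.48 on all arrays, close to the floor, where the ranges of the conditions overlapped and a change of -0.17 ± 0.07 (adjusted p = 0.0266) says little of a level. That call was lost when any 1 of 4 arrays was left out, such as old cultured replicate 1 (adjusted p = 0.0626). Rpl3, its ubiquitous partner, was at 11.56 to 11.83 in vivo and 11.81 to 11.95 in culture (0.23 ± 0.05, adjusted p = 4.3e-04; -0.049 with cyclic loess). Rpl10 (0.09 ± 0.05, adjusted p = 0.103) and Rps4x (0.05 ± 0.05, adjusted p = 0.336) did not pass as deposited. They were at -0.11 and -0.15 with the 75th percentile and at -0.18 and -0.23 with cyclic loess. The members with the highest signal were Rps2, Rps6 and Rpl31. Rps2 changed by 0.16 ± 0.05 (adjusted p = 0.00386) as deposited and was at -0.035 with the 75th percentile and -0.082 with cyclic loess. Rpl31 changed by 0.33 ± 0.05 (adjusted p = 1.01e-05), and its call was lost with cyclic loess (0.071).

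**Figure D3:**
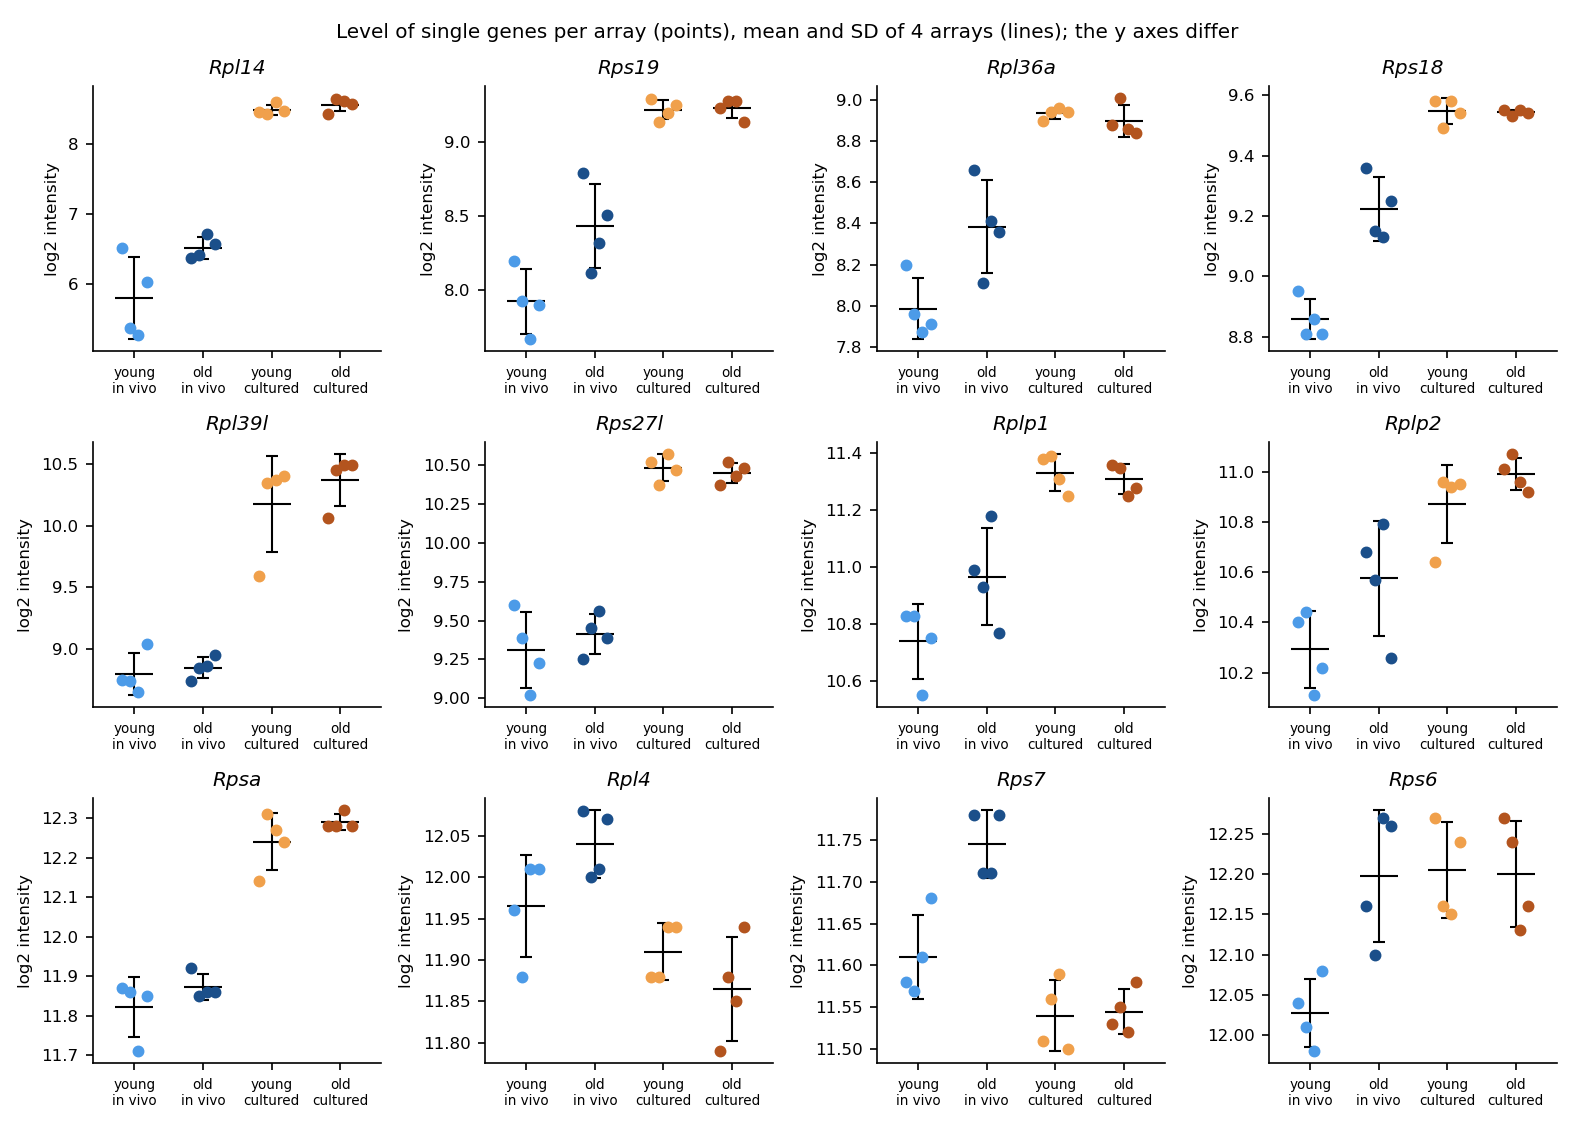
Log2 intensity of 12 ribosomal protein genes on each of 16 arrays (points), with the mean and SD of 4 arrays per group; the y axes differ between genes. The mean of Rpl14, Rps19, Rpl36a and Rps18 is lowest in young in vivo and highest in cultured cells, although no age difference passed the threshold; Rpl39l, Rps27l and Rpsa separate by culture and overlap between the ages, and Rpl4 and Rps7 are lowest after culture.

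More members passed with culture in young than in old cells. In young cells 45 of 67 were higher and 1 was lower (32.6% and 38.6% of all genes), with a median of 0.28. In old cells 27 were higher and 4 lower (30.2% and 32.5% of all genes), with a median of 0.13. Of the 688 genes with a mean of at least 10, 48% were higher in young cells and 44.2% in old cells. In each age 28.1% of them were lower, and their medians were 0.165 in young and 0.13 in old cells. The 27 members higher in old cells were all higher in young cells, and 18 were called in young cells alone, which is not a test of the difference. For 53 members the 4 young cultured arrays lay above the 4 young in vivo arrays (30.6% of all genes and 50.4% of the 688). For 28 members the old arrays did so (27.6% of all genes and 43.8% of the 688). The test of the difference, the interaction of age and culture, called 0 of 67 members (0.196% of all genes were higher and 0.391% lower) by limma, with 13 lower and 0 higher at an unadjusted p under 0.05 (8.37% and 3.93% of all genes). The 13 became 5 with the 75th percentile and 6 with cyclic loess, against 5.39% and 7.3% of all genes. Its median was -0.13, against -0.02 over all genes, and 61 of the 67 members had a value of 0 or below. The smallest adjusted p was that of Rps18 (-0.37 ± 0.10, adjusted p = 0.113). Without young in vivo replicate 1, Rpl14 passed (-0.88 ± 0.20, adjusted p = 0.0461). Without old in vivo replicate 1, 33 members were higher and 1 lower with culture in old cells (28.7% and 30.2% of all genes), with a median of 0.19. The interaction then had a median of -0.11 with 56 of 67 members at or below 0, 0 calls and 10 members lower and 0 higher at an unadjusted p under 0.05 (10.9% and 4.04% of all genes).

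The second comparison asked how old cells differed from young cells in vivo. No member passed the threshold (0 of 67 by limma on the 8 in vivo arrays), where 0.911% of all genes were higher and 0.439% lower. Their values nevertheless lay on 1 side: 63 of 67 members had a higher mean in old cells (94%), against 53% of all genes and 64.5% of the genes with a mean of at least 10. Members are not independent of each other, since they were measured on the same 8 arrays, so this share is a description. At an unadjusted p under 0.05, 17 members were higher and 0 lower, against 10.6% and 4.34% of all genes. That count was 10 without old in vivo replicate 1 (13% of all genes; 0 members and 4.5% of all genes were lower), 11 without young in vivo replicate 3 (8.1%), and 8 with either other scaling (7.01% of all genes with the 75th percentile and 8.47% with cyclic loess). For 24 members all old arrays lay above all young arrays, against 5.8% of all genes. Among genes with a mean of at least 10, 12.2% of all 688 and 21 of the 55 members did so. For 1 member, Rpl3l, all old arrays lay below all young arrays (2.73% of all genes). Without old in vivo replicate 1 the counts were again 24 and 1, against 10.6% and 4.39% of all genes. The median difference was 0.14, against 0.02 for all genes and 0.06 for genes with a mean of at least 10.

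The age difference was alike in both subunits, with medians of 0.14 in 40 60S genes and 0.13 in 24 40S genes. The largest were those of Rpl14 (0.72 ± 0.24, adjusted p = 0.182), where young in vivo replicate 1 lay within the old range, and of Rps19 (0.51 ± 0.16, adjusted p = 0.15), where young replicate 1 exceeded old replicate 2. Rpl36a (0.40 ± 0.13, adjusted p = 0.168) overlapped in the same way. Rps18 had the smallest adjusted p of the members (0.37 ± 0.10, adjusted p = 0.0962), and its old arrays all lay above its young ones. Without old in vivo replicate 1 these differences were 0.77 (Rpl14), 0.39 (Rps19), 0.31 (Rpl36a) and 0.32 (Rps18), with adjusted p of 0.135 to 0.234. The following genes were picked after their values were seen. Rpl13 was at 9.39, 9.59, 8.94 and 9.32 in young and 9.85, 9.76, 9.77 and 9.63 in old cells. Rpl32 was at 9.41, 9.51, 9.27 and 9.55 in young and 10.08, 9.72, 9.83 and 9.72 in old cells. Rpl19 was at 10.86, 10.89, 10.76 and 10.84 in young and 11.28, 11.05, 11.23 and 11.17 in old cells. In each of the last 3 genes the ages did not overlap.

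The call of single genes with age turned on which arrays gave the estimate of spread. With all 16 arrays in 1 fit, which borrows the smaller spread of the cultured arrays, 12 members were higher in old cells, against 4.49% of all genes. These were Rpl14, Rps19, Rpl13, Rpl32, Rpl36a, Rps18, Rpl19, Rps9, Rpl12, Rps24, Rpl26 and Rpl24, with differences of 0.25 to 0.72 and adjusted p of 0.00679 (Rps18) to 0.0485 (Rpl26). Under the other scalings 55 of 67 members were above 0, both with the 75th percentile and with cyclic loess, with medians of 0.07 in both. Without old in vivo replicate 1, 61 of 67 were above 0 and the median was 0.12.

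**Figure D4:**
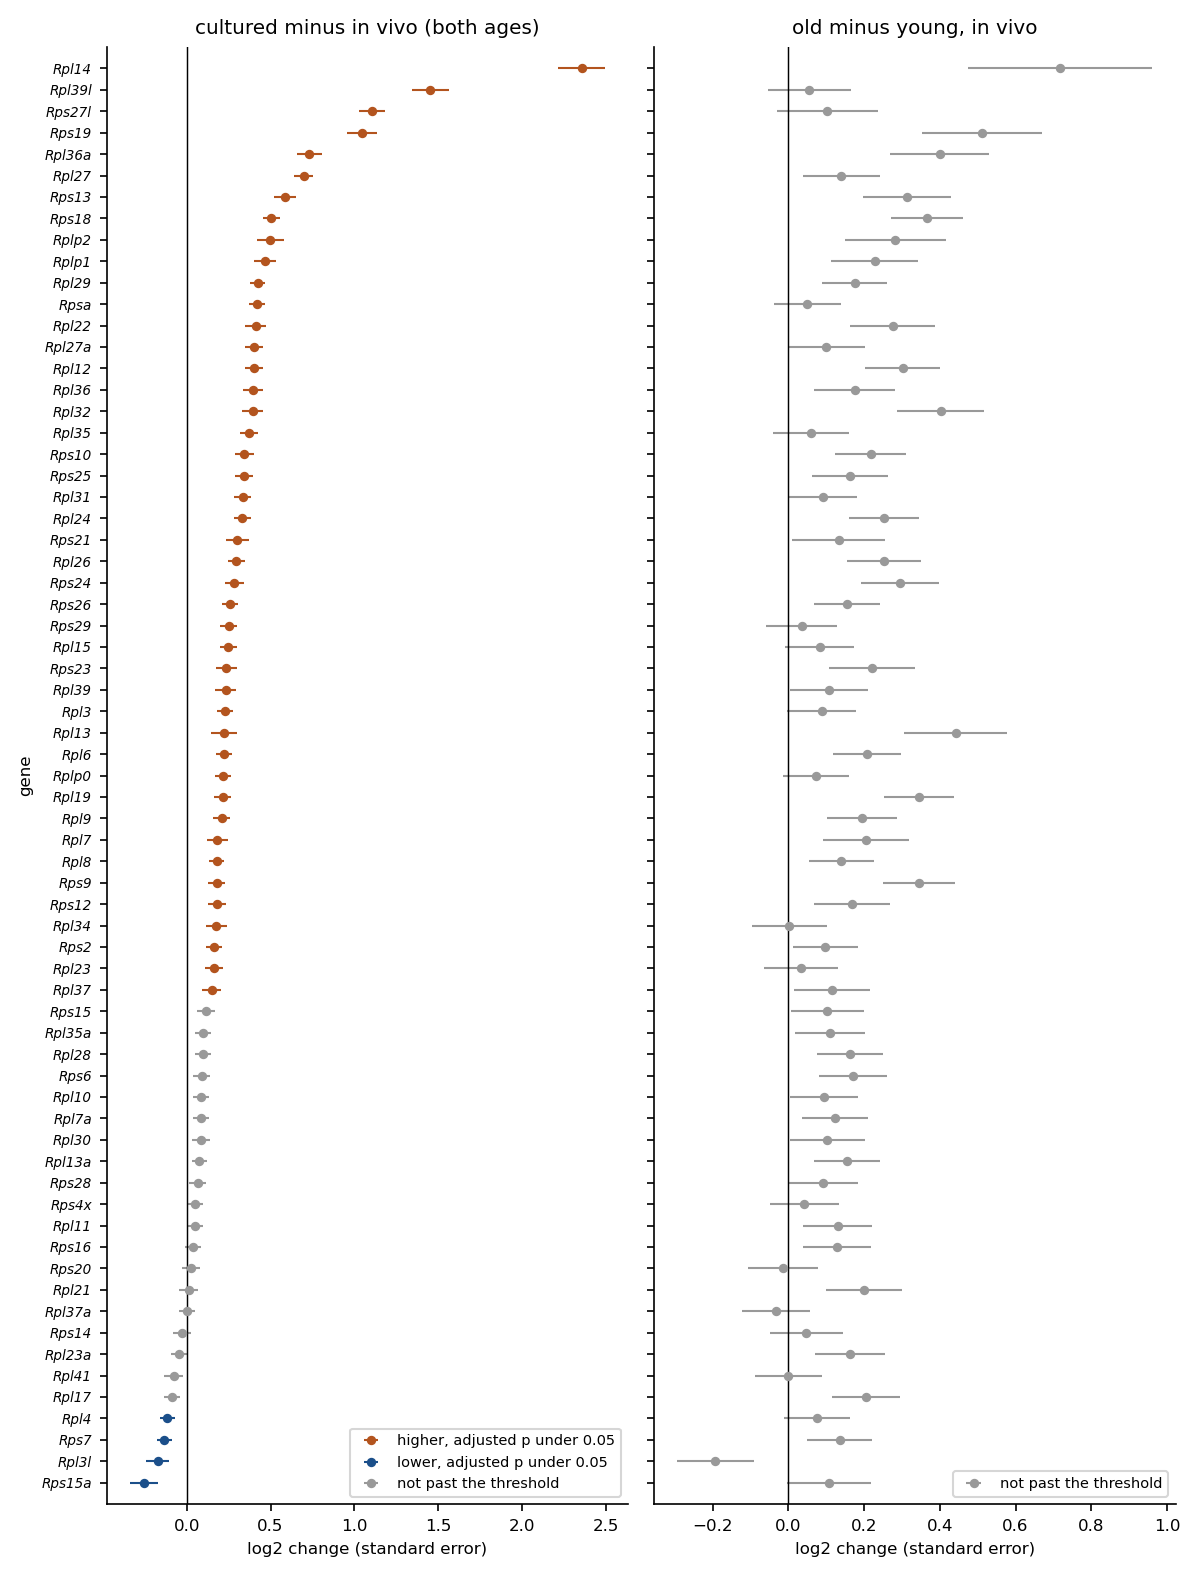
Log2 change with its standard error for each of the 67 ribosomal protein genes, ordered by the change in culture; left, cultured minus in vivo over both ages, right, old minus young in vivo; colours give the call at an adjusted p of 0.05, and the x axes differ. In culture 44 genes are higher and 4 lower, and with age in vivo no gene is called although 63 points lie above 0.

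No age difference was called after culture. Between old and young cultured cells, 0 of 67 members passed by limma on the 8 cultured arrays, as did 0% of all genes in either direction, and 0 members had an unadjusted p under 0.05, against 1.96% of all genes higher and 1.63% lower. The median difference was 0.01, and no member separated the ages, against 1.19% of all genes upward and 0.864% downward. Differences ran from -0.07 (Rpl27) to 0.20 (Rpl39l, 0.20 ± 0.19).

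Members with a lower signal had larger median changes. The 12 members with a mean below 10 had medians of 0.55 in culture and 0.34 with age in vivo, against 0.18 and 0.13 for the 55 others. Across the 67 members, Spearman's rho between mean level and change was -0.36 for culture and -0.61 for age in vivo, given as a description because genes share arrays and probe affinity. The 67 members had 128 probe sets in all, and 33 of the members had more than 1. Of the 61 probe sets that were not chosen, 54 averaged higher in old than in young cells in vivo, with a median difference of 0.16. Of the same 61, 12 separated the ages upward and 0 downward, against 5.8% and 2.73% of all genes by their chosen probe sets.

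With culture, the 61 other probe sets had a median change of 0.19, and 23 lay higher and 4 lower than in vivo without overlap. By their chosen probe sets, 23.9% of all genes and 37.9% of genes with a mean of at least 10 lay higher. Of all 14819 genes, 3142 lay lower. For 2 members, Rpl22 and Rpl41, probe sets separated the conditions in both directions. These and 2 further genes, chosen after their values were seen, are given here. Rpl22, an RNA-binding protein of the large subunit, was 0.41 higher by the probe set used here and went from 8.37 and 8.50 in young and old in vivo cells to 7.45 and 7.59 by the other. Rpl41, the shortest ribosomal protein, was near 11.90 in vivo and 11.78 and 11.86 after culture by the probe set used here, while 2 others differed by -2.02 and -2.09 with culture. A further probe set of Rps24, which has alternatively spliced 3′ ends, went from 4.53 and 5.14 to 7.81 and 7.84, where the one used here went from 10.79 and 11.09 to 11.23 and 11.21. A further probe set of Rpl17 went from 6.93 and 7.16 to 9.55 in both cultured groups, where the one used here stayed between 10.80 and 11.01. Which transcripts these probe sets read was not tested. Ribosomal protein genes also have many processed pseudogenes, and 26 members rest on probe sets whose type allows hybridisation to similar sequences. Without such probe sets, 59 members remained, of which 57 averaged higher in old than in young cells in vivo. Rpl17 then rested on the further probe set and changed by 2.51 in culture (adjusted p = 4.09e-12), where it was at -0.086 before.

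**Figure D5:**
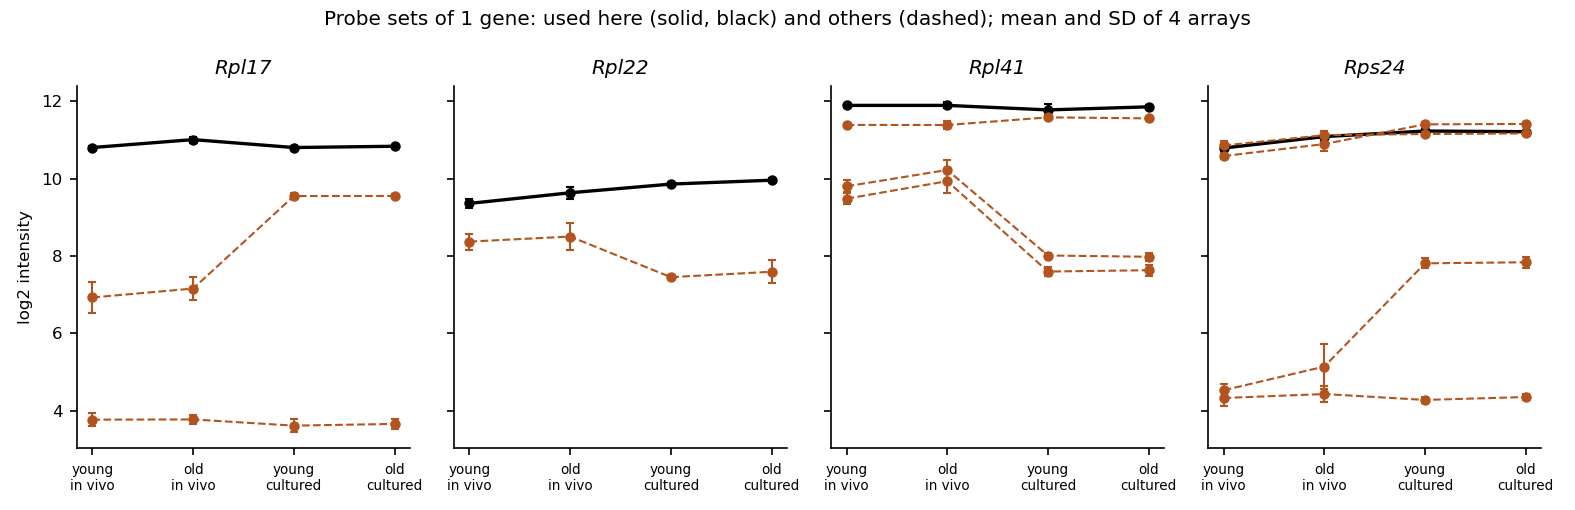
Log2 intensity of every probe set of Rpl17, Rpl22, Rpl41 and Rps24 in the 4 groups (mean and SD of 4 arrays); black solid lines mark the probe set used for the gene and dashed lines the others. A pair of dashed lines lies lower in culture for Rpl41, and 1 goes from 4.53 to 7.81 for Rps24 in young cells, where the solid line goes from 10.79 to 11.23.

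Genes that work with the ribosome had larger median changes in culture than the members (0.22). They were not matched to the members by signal level, and the 12 members with a mean below 10 had a median of 0.55. Of 28 genes for ribosome biogenesis, the factors that make rRNA and assemble the subunits, 26 were higher and 0 lower (median 1.09), for example Wdr12 (2.99 ± 0.14), Rrs1 (2.54 ± 0.08) and Nhp2 (2.53 ± 0.10). Of 20 translation factors and other genes with TOP mRNAs, 16 were higher and 2 lower (median 0.40), against 34.8% and 44.7% of all genes. These became 11 and 3 with the 75th percentile and 10 and 6 with cyclic loess. The list held Eif3e, a subunit of an initiation factor, at 1.21 ± 0.10, and the non-coding host gene Gas5 at -1.17 ± 0.07. Of 5 ribosomal proteins whose symbols fall outside the rule, 4 were higher: Rpl7l1 (1.43 ± 0.08), Rpl22l1, the paralogue of Rpl22 (1.40 ± 0.09), Rpl36al (0.58 ± 0.05) and Fau (0.30 ± 0.06), while Rps3a1 was at 0.01 ± 0.05. Of 73 genes for mitochondrial ribosomal proteins, 66 were higher and 4 lower (median 0.85). The medians of these lists stayed above 0 under both other scalings, at 0.82 for ribosome biogenesis, 0.12 for the TOP genes, 0.28 for the 5 ribosomal proteins and 0.58 for the mitochondrial ones with cyclic loess, which took Fau to -0.01 and Rps3a1 to -0.26.

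Upstream regulators were mixed, with 6 of 13 higher and 4 lower, against 34.8% and 44.7% of all genes. With the 75th percentile 6 were higher and 7 lower, and with cyclic loess 4 and 6. The transcription factor Myc (0.57 ± 0.09), the kinase Mtor (0.42 ± 0.08) and its activator Rheb (1.37 ± 0.09) were higher. So were Larp1 (1.61 ± 0.08) and the translation repressor Eif4ebp1 (1.90 ± 0.05). The cap-binding protein Eif4e was lower (-1.05 ± 0.09), as were Mxi1 (-0.97), Mycn (-0.50) and Eif4ebp2 (-0.24). Of 8 genes for p53 targets and the checkpoint that free ribosomal proteins engage through MDM2, 6 were higher and 1 lower. Beside the member Rps27l these included Phlda3 (1.67 ± 0.18), Zmat3 (1.44 ± 0.10) and Mdm2 (0.40 ± 0.07), while the cell-cycle inhibitor Cdkn1a was at -0.49 ± 0.08. Of the genes named here, Mtor and Mdm2 lost their call with cyclic loess (0.14 and 0.09), and no direction turned.

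With age in vivo, the medians of most related lists also lay above 0. Of all tested genes, 53% lay above 0 and 0.911% were called higher. At an unadjusted p under 0.05 by limma, 10.6% of them were higher. Ribosome biogenesis had 25 of 28 genes above 0 (median 0.19) and 1 call, Rrs1, an assembly factor of the 60S subunit (0.80 ± 0.12, adjusted p = 0.0118). Mitochondrial ribosomal proteins had 67 of 73 above 0 (median 0.27) and 1 call, Mrpl38 (0.50 ± 0.10, adjusted p = 0.0473). Translation factors and other TOP genes had 18 of 20 above 0 (median 0.16) with 0 calls by limma and 7 at an unadjusted p under 0.05. The p53 list was divided, with 4 of 8 above 0, and the upstream regulators had 9 of 13 above 0 and 0 calls. Without old in vivo replicate 1, ribosome biogenesis had 2 calls (Rrs1 and Ebna1bp2) and mitochondrial ribosomal proteins had 4 (Mrpl55, Mrpl58, Mrps15 and Mrps17, not Mrpl38). The TOP genes then had 0 calls, with 6 at an unadjusted p under 0.05. Of all genes, 1.45% were then called higher and 13% were higher at an unadjusted p under 0.05. The mitochondrial list had 0 calls with either other scaling or without any 1 of the other in vivo arrays apart from young replicate 1, and ribosome biogenesis had 0 without cross-hybridising probe set types.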

How the data were processed

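Gene expression was measured on 16 arrays, 4 in each of 4 groups. The deposited table holds 45141 probe sets, and the authors' values were taken as log2 intensities from their range (2.70 to 13.08); the submitters' processing notes name RMA and the affy package and give no version. RMA subtracts background and brings arrays toward a common scale, so changes are relative and those of dim genes are understated. The deposited arrays still differed, with a 75th percentile of 6.46 to 6.66 in vivo and 6.73 to 6.85 after culture. Probe sets with 1 symbol in the platform annotation numbered 28898, those with several 551, and 15692 were not listed, among them 104 Affymetrix controls. A gene was tested if at least 4 arrays exceeded 3.87, the 25th percentile of all values. The fit used limma 3.58.1 under R 4.3.3 (lmFit, then eBayes on 1 mean per group), on all 16 arrays for culture and the interaction and on the 8 arrays of the condition for age, since in vivo arrays spread more widely. P-values are two-sided, Benjamini-Hochberg adjusted over the 14819 tested genes, with a threshold of 0.05, and errors of changes are standard errors of the fit. The script was tested on simulated data. With 4 against 4 arrays, the number of arrays limits the precision, and an exact permutation test could not give a p below 0.0286. Replicates are separate mice by the labels' account of the mice used. No pair of arrays was identical (0 pairs).

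The members and the gene lists were chosen with earlier results of these data known. Members were named with values if they were among the 10 largest called changes in a contrast, were called against the direction of most members, were on a fixed list of stalk proteins, Rpsa, Rps6, paralogues and their partners, or were among the 3 brightest or 3 dimmest; other names were picked after their values were seen, and other members appear by count. Of that list, genes without a 1-symbol probe set on the array were not analysed here. Alternatives were 2 other scalings (75th percentile, cyclic loess), no filter, the mean over probe sets, no cross-hybridising probe set types, age from all 16 arrays, array weights by condition and leaving out each array. Start sequences came from RefSeq (GRCm38.p6), and motif runs were found with Python 3.11.15.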

Additional observations from a re-analysis of the deposited data

Results flagged for a closer look

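Within the groups of 4 arrays, 96 sets of values of the named members were examined for an array far from the others, by the gap to its nearest neighbour over the whole range (above Dixon's critical value for 4 samples). There were 8 such values, where chance flags about 1 in 20 sets. Of these, 4 came from cultured replicates numbered 1: Rpl39l was low in young cultured replicate 1 (9.59, where the other 3 lay at 10.35 to 10.40) and in old cultured replicate 1 (10.06, against 10.45 to 10.49), and Rpl27 (11.31) and Rplp2 (10.64) were low in young cultured replicate 1. Rpsa had 3, low in young in vivo replicate 3 (11.71) and high in old in vivo replicate 1 (11.92) and in old cultured replicate 3 (12.32). Rpl3 was low in old cultured replicate 3 (11.88), although the 4 values spanned only 11.88 to 11.94. The numbers follow the order of deposit and do not tie arrays to a mouse or a day.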

How the results depend on the processing

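Scaling changed the culture results most. With the 75th percentile, members higher and lower numbered 22 and 16 (median 0.02) averaged over the ages. They numbered 22 and 10 (0.045) in young and 11 and 8 (-0.03) in old cells. Of all 15184 genes, 3780 (24.9%) were then higher and 8601 lower in young cells, and 3683 (24.3%) and 7382 in old cells. With cyclic loess the members numbered 12 and 22 (-0.064), 12 and 17 (-0.044) and 6 and 20 (-0.10), in the same order. Of all 14857 genes, 4364 (29.4%) were then higher and 4638 lower in young cells, and 4029 (27.1%) and 4273 in old cells. The age median in vivo was 0.07 and the interaction median -0.05 with the 75th percentile, and the latter -0.055 with cyclic loess. Of the 67 members, 23 turned from above to below 0 with the 75th percentile, 36 with cyclic loess, 4 with the mean over probe sets and 3 without cross-hybridising types. Among the members named for culture, those that were called in either fit and turned were, with cyclic loess, Rplp0 (-0.059), Rpl3 (-0.049), Rpl10 (-0.18), Rpl39 (-0.064), Rps4x (-0.23), Rps6 (-0.17) and Rps2 (-0.082), with the 75th percentile Rps4x (-0.15) and Rps2 (-0.035), and without cross-hybridising types Rpl10 (-0.13). The 75th percentile of the deposited arrays was 6.46 to 6.66 in vivo and 6.73 to 6.85 after culture. Scaling to a common value lowered the culture change of every member by the same amount. The cause of the turns with the other settings was not tested. The mean over probe sets gave 7 members lower averaged over the ages and 3 in young cells, and leaving out those probe set types gave 2 lower in young cells and 1 higher with age in vivo, Rps10 (0.54, adjusted p = 0.0397 by limma). Age in vivo from all 16 arrays gave 12 higher, by its smaller estimate of spread. No filter and array weights by condition kept all counts within 1.5 times.

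Leaving out 1 array at a time (16 fits) gave 44 to 47 higher and 2 to 4 lower averaged over the ages, 42 to 45 and 0 to 2 in young cells, 24 to 33 and 1 to 4 in old cells, and 0 to 1 lower in the interaction, with no call for age. The count of 4 lower averaged over the ages fell to 2 without young in vivo replicate 4, young cultured replicate 1 or old cultured replicate 1, through Rpl3l and Rpl4. The 1 lower in young cells was lost without young in vivo replicate 3 or 4 or young cultured replicate 1, and became 2 without young cultured replicate 3. In old cells 1 or 2 were lower without old in vivo replicate 1 or 3 or old cultured replicate 1, 2 or 3. The least correlated in vivo array is old in vivo replicate 1, so leaving it out is 1 of these fits. No paired analysis was possible because the labels do not say which arrays share a mouse or a day, and replicate numbers follow the order of deposit.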
